A study of Mus musculus with 2 samples.

Results

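Plvap-low endothelium of the newborn mouse kidney is the group of endothelial cells in which no transcript of Plvap was counted. The members were chosen by the UMIs (unique molecular identifiers, each standing for 1 counted RNA molecule) of 6 genes in each cell, so the levels of these genes are no finding. Cells entered with 3000 or more UMIs, 500 or more genes detected and no more than 20% of UMIs from mitochondrial genes. A member then needed at least 1 UMI of Pecam1 and of Cdh5, which mark endothelium, and 0 UMIs of Plvap. Gates against other cell types asked for 0 UMIs of Epcam (epithelium), at most 2 of Col3a1 (stroma) and 0 of C1qa (macrophages). This rule found 135 members among 9735 cells, 99 of 5529 in library 1 and 36 of 4206 in library 2. The endothelial cells that met every other condition but carried Plvap, 525 and 482 cells, are called Plvap-positive and serve as the reference. On GRCm38 (GENCODE M21) Plvap lies at chr8:71497765-71511752 on the minus strand, Gja5 at chr3:96904693-97077416 and Ehd3 at chr17:73804134-73832094, both on the plus strand. Within the members, a UMI of Gja5 marked arterial cells and a UMI of Ehd3 marked glomerular cells.

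The study profiled single cells of whole kidney at postnatal day 0 on the Chromium system, reading the 3' ends of transcripts, in 2 libraries. The labels give both the genotype Rbpj c/+ ; Foxd1cre/+, read here as 1 conditional copy of Rbpj beside a Cre recombinase under the control of Foxd1, a gene of stromal progenitors rather than of endothelium. They form 1 group with n = 2, no other genotype was analysed here, and the numbers of the libraries are names only. Nothing in the labels says that the libraries came from separate animals, so variation between them may be technical. The tests take out differences in level between libraries. Every p-value printed therefore rests on how far group differences vary between these libraries, with an estimate of that spread shared across genes. Where a pair of values is given, library 1 comes first.

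Plvap encodes the protein of the diaphragms that span the fenestrae and caveolae of capillary and venous endothelium. Glomerular capillaries have fenestrae without such diaphragms once they mature, and arteries lack fenestrae, so a kidney endothelial cell without Plvap can belong to either bed. Arterial identity is set up by VEGF, SOX17 and Notch signalling, in which the cut Notch receptor acts on DNA through RBPJ. Gja5 encodes connexin 40, a gap junction protein of arterial endothelium, and Ehd3 an endocytic recycling protein that in the kidney is known from glomerular endothelium.

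Promoter sequence is shown for 4 genes of the arterial and glomerular lists that were higher in the Plvap-low cells than in the Plvap-positive cells, to show what a RBPJ or SOX motif looks like at such genes. Each line gives the 250 bases before the start site, 5' to 3' on the strand of the gene, from RefSeq (GRCm38.p6). Capitals mark the RBPJ motif TGGGAA (or its reverse complement TTCCCA) and the SOX motif ACAAT (or ATTGT), searched on both strands and never overlapping each other in these windows. Gja4 encodes connexin 37 and its window is chr4:127314040-127314289 on the minus strand. Bmx encodes a kinase of arterial endothelium, with its window at chrX:164258194-164258443 on the minus strand. Cxcl12 encodes a chemokine, at chr6:117168285-117168534 on the plus strand, and Nostrin encodes a trafficking protein of nitric oxide synthase, at chr2:69135550-69135799 on the plus strand. No window overlaps an annotated exon.
Gja4: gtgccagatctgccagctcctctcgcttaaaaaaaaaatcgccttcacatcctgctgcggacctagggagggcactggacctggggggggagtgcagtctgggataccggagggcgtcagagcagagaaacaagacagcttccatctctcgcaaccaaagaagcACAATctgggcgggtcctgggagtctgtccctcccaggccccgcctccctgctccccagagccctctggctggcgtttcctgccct
Bmx: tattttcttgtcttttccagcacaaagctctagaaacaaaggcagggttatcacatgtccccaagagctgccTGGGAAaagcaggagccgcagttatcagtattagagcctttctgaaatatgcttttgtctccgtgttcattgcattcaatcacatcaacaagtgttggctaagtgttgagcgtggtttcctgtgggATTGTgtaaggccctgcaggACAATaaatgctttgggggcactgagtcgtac
Cxcl12: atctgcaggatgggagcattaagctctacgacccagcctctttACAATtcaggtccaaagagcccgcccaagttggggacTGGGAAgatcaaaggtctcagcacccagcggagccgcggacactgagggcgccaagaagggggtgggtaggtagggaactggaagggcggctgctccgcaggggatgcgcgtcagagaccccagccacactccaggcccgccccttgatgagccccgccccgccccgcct
Nostrin: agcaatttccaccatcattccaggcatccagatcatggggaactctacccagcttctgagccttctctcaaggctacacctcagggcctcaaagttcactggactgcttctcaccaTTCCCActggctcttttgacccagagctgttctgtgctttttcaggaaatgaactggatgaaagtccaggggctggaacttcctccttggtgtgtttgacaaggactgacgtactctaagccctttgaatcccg
Shares were counted over windows of the 250 bases before the start site. TGGGAA was found in 21.6% of 32851 mouse promoter windows. It was found in 17.2% of 29 windows of the arterial list with Gja5 and in 16.7% of 18 windows of the glomerular list with Ehd3. ACAAT was found in 27.7%, 24.1% and 11.1% of the same windows. RefSeq windows matched 24 of the 31 arterial and 17 of the 23 glomerular genes. A match describes letters only.

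The members made up 1.79% of all cells in library 1 (exact binomial 95% interval 1.46% to 2.18%) and 0.856% in library 2 (0.600% to 1.18%). Among endothelial cells the shares were 15.9% (13.1% to 19.0%) and 6.95% (4.91% to 9.49%). These intervals cover counting error only, do not overlap between the libraries, and no group comparison can be made with 1 group. The members were the shallower cells, with median depths of 6990 and 9639 UMIs against 11708 and 13385 for Plvap-positive cells. The share of endothelial cells with 0 Plvap UMIs fell from 45.1% and 30% at 3000 to 5000 UMIs to 7.04% and 2.27% at the deepest cells, so the gate takes a larger share of the shallow cells. How many of those carry Plvap RNA that was not sampled was not tested. Just outside the gate stood 58 and 30 cells with 1 Plvap UMI and 36 and 30 with 2. Just inside, 8 and 3 members held a single Pecam1 UMI, 7 and 3 a single Cdh5 UMI, 3 and 4 a single Col3a1 UMI, and 8 and 3 had under 4000 UMIs. A further 12 and 9 barcodes of 2000 or more but under 3000 UMIs met the remaining conditions. No barcode was shared by members of different libraries, and 6 were shared among all cells.

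**Figure D1:**
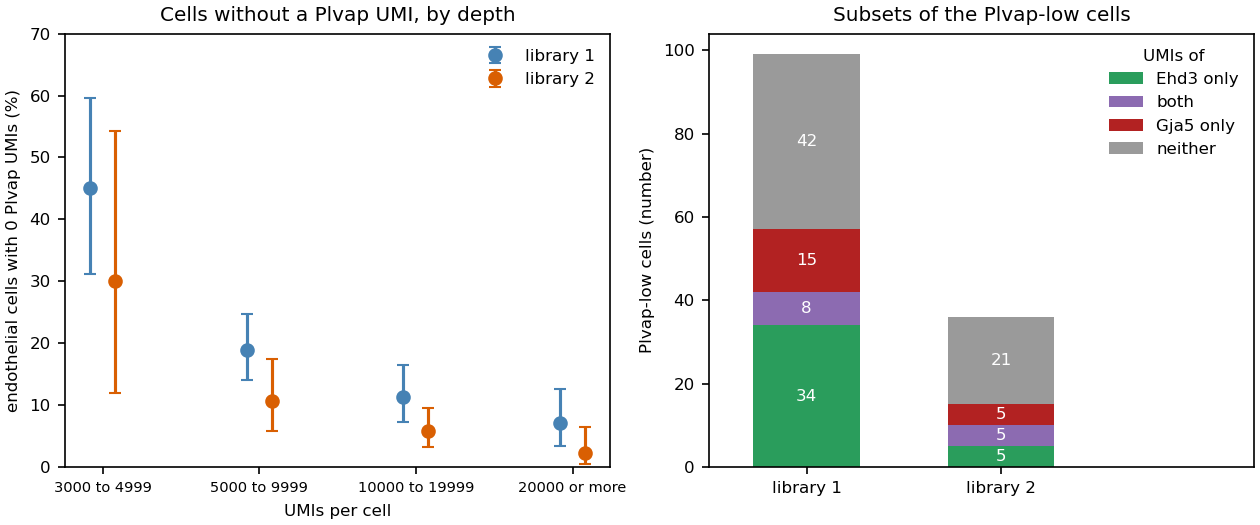
Left: percent of endothelial cells with 0 Plvap UMIs (y axis) in bins of UMIs per cell (x axis), 1 point per library with its exact binomial 95% interval. Right: number of Plvap-low cells in each library, stacked by whether they carry a UMI of Ehd3, Gja5, both or neither. The share without Plvap falls with depth in both libraries, from 45.1% and 30% to 7.04% and 2.27%.

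Gja5 and Ehd3 divided the members into 4 sets. Ehd3 without Gja5 was found in 39 cells (34 and 5), Gja5 without Ehd3 in 20 (15 and 5), both in 13 (8 and 5), and neither in 63 (42 and 21), which is the largest set. To compare detection at equal depth, every cell was thinned at random to 3000 UMIs. Gja5 was then detected in 15.2% and 13.9% of Plvap-low cells, 2.1% and 2.3% of Plvap-positive cells and 0.0% and 0.3% of epithelial cells (Epcam without Pecam1 or Cdh5), which measure free RNA. Unthinned, the shares were 23.2% and 27.8%, 5.3% and 7.1%, and 1.3% and 1.8%, at median depths in the epithelial cells of 22889.5 and 28580 UMIs. With 0 of 1932 epithelial cells, library 1 allows a share of up to 0.155% of cells with a Gja5 UMI at 3000 UMIs, which covers counting error only and does not limit the share of cells that carry Gja5 RNA. At 3000 UMIs the libraries lie close together for Gja5, and Plvap-low cells stand apart from both other groups.

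Ehd3 was less exclusive. After thinning it was detected in 37.4% and 22.2% of Plvap-low cells, 13.5% and 19.5% of Plvap-positive cells and 1.6% and 1.7% of epithelial cells. The libraries differ more than for Gja5, and in library 2 the Plvap-low and Plvap-positive shares are close. Without thinning the order in library 2 turned, with 27.8% of Plvap-low against 45.2% of Plvap-positive cells, while library 1 had 42.4% against 34.1%. Summed over cells, Ehd3 stood at 636 and 318 CPM (counts per 1000000 UMIs) in the Plvap-low and 155 and 145 CPM in the Plvap-positive cells, and Gja5 at 113 and 159 against 23.5 and 22.0 CPM. Both genes belong to the rule that divides the members, so their levels are a description without a test.

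The label was checked on marker lists, summing the UMIs of each library over its Plvap-low and over its Plvap-positive cells. Of 22 pan-endothelial genes all were counted in both Plvap-low sums. Pecam1 and Cdh5, which the rule used, stood at 929 and 1043 and at 778 and 864 CPM in the members against 718 and 795 and 687 and 719 CPM in Plvap-positive cells. Epithelial and stromal markers were low in the members: 12 tubule markers summed to 94.1 and 124 CPM, against 1708 and 2566 CPM in barcodes of 1 to 100 UMIs, which hold free RNA. The 9 stromal markers summed to 54.6 and 117 CPM, the 12 mural and mesangial markers to 90.4 and 59.6 CPM, and 7 podocyte markers to 726 and 1167 CPM, against 829 and 668 CPM in the free RNA. Among the 135 members, 2 held a UMI of Pdgfrb (mural cells), 2 of Ptprc and 2 of Lyz2 (leucocytes), and 1 held the lymphatic genes Prox1, Mmrn1 and Lyve1 together. No doublets were removed, and Scrublet called 2 members. The label glomerular and arterial covers the 72 members with Ehd3 or Gja5, and the 63 with neither are described by their own genes further on.

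Set against the Plvap-positive cells of the same libraries, 619 of 12922 tested genes were higher and 705 lower in Plvap-low cells (edgeR, adjusted p under 0.05). The calls cover 10.2% of genes tested, 4.79% higher and 5.46% lower, and the median log2 difference of all tested genes was -0.02. Each difference below is log2 of Plvap-low over Plvap-positive, with a standard error (SE). For every edgeR comparison here the SE was worked back from the difference and the F statistic of its test. It is therefore no measure of precision apart from that test. Since Plvap divides the same cells into these groups, any gene whose RNA follows that of Plvap from cell to cell had to differ, and depth differs with it. A call is therefore a measurement of this division and does not show separate cell types. The count of 1324 calls was 471 with DESeq2 and 560 without the library as a block.

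Genes of the arterial list were higher almost throughout. Of 30 tested members, 27 were called higher and none lower, with a median log2 difference of 1.64. The transcription factor gene Sox17 stood at 536 and 934 CPM in Plvap-low and 262 and 264 CPM in Plvap-positive cells, a log2 difference of 1.37 (SE 0.15, adjusted p = 6.4e-10). Gja4 stood at 255 and 516 against 72.9 and 89.3 CPM, a log2 difference of 2.12 (SE 0.17, adjusted p = 1.6e-14). In both genes the lower Plvap-low library lies well above the higher Plvap-positive library. Bmx stood at 81.9 and 127 against 12.4 and 12.4 CPM, a log2 difference of 2.97 (SE 0.24, adjusted p = 3.4e-14). Cxcl12 stood at 514 and 916 against 143 and 189.8 CPM, a log2 difference of 2.01 (SE 0.15, adjusted p = 1.9e-15), and the gene of its receptor, Cxcr4, at 28.2 and 37.2 against 11.8 and 4.33 CPM, a log2 difference of 1.96 (SE 0.43, adjusted p = 0.00079). The pair thus moved the same way, each without overlap between the groups. Vegfc, a growth factor gene best known for lymphatic growth, stood at 409 and 474 against 103 and 74.4 CPM, a log2 difference of 2.27 (SE 0.17, adjusted p = 7.2e-16). Elastic fibre genes were raised with them: Fbln5 stood at 209 and 350.1 against 72.4 and 67.7 CPM, a log2 difference of 1.89 (SE 0.18, adjusted p = 2.4e-12). Eln, which encodes elastin, stood at 441 and 392 against 66.8 and 130.4 CPM, but 315 of its 626 member UMIs lay in 1 cell. Igfbp3, Alpl and Notch1 did not pass, at 0.40 (adjusted p = 0.12), 1.38 (adjusted p = 0.18) and 0.30 (adjusted p = 0.32).

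**Figure D2:**
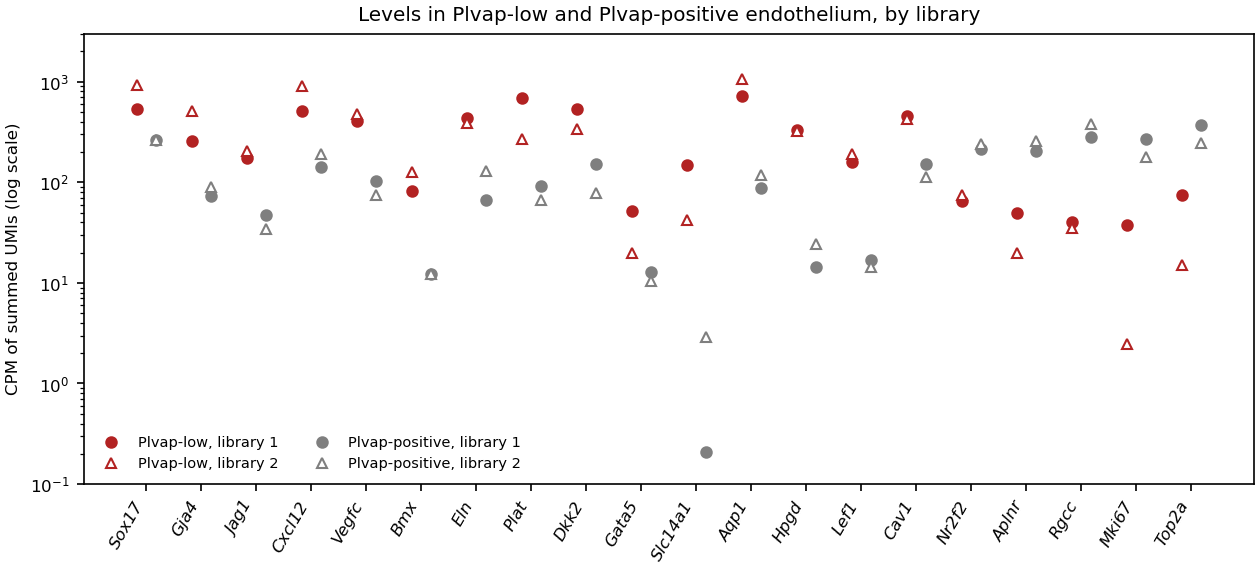
CPM of the UMIs summed over Plvap-low (red) and Plvap-positive (grey) cells of each library (filled circles library 1, open triangles library 2), on a log axis, for 20 genes named along the x axis. Arterial, glomerular and Slc14a1 to Cav1 genes lie higher in the Plvap-low sums of both libraries, and Nr2f2, Aplnr, Rgcc, Mki67 and Top2a lie lower.

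Ligands and targets of the Notch pathway were among the genes that rose, while its DNA-binding partner did not pass. Of 21 tested genes, 7 were called higher and none lower, at a median of 0.25. Notch4, Dll4, Jag1, Jag2, Hey1 and Hey2 are also in the arterial list and were counted there, so they are no separate result. The remaining call was Dlk1, an inhibitory relative of the Notch ligands. The ligand gene Jag1 stood at 176 and 206 against 47.1 and 34.5 CPM, a log2 difference of 2.16 (SE 0.18, adjusted p = 3.4e-14), and Jag2 stood at 87.5 and 169 against 39.2 and 35.9 CPM, a log2 difference of 1.61 (SE 0.20, adjusted p = 9.6e-09). The arterial ligand gene Dll4 stood at 101 and 72.0 against 49.6 and 37.4 CPM, a log2 difference of 0.96 (SE 0.20, adjusted p = 0.00031). Of the transcriptional targets, Hey1 stood at 74.4 and 91.9 against 22.6 and 14.4 CPM, a log2 difference of 2.07 (SE 0.25, adjusted p = 3.5e-09), and Hey2 at 10.4 and 27.3 against 2.08 and 2.58 CPM, a log2 difference of 2.80 (SE 0.59, adjusted p = 0.00037). Another target, Hes1, did not pass, at -0.11 (adjusted p = 0.82). Among receptors, Notch4 passed at a log2 difference of 0.76 (SE 0.17, adjusted p = 0.0014), and Notch1, at 189 and 204 against 153 and 155 CPM, did not. Rbpj, the gene of the conditional allele, stood at 81.9 and 52.1 against 59.3 and 54.3 CPM, a log2 difference of 0.25 (SE 0.20, adjusted p = 0.58), with groups that overlap. What part of that RNA comes from the conditional copy cannot be read from counts per gene.

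Glomerular endothelial genes were raised as a smaller share of their list. Of 22 tested members, 11 were called higher and 1 lower, with a median of 0.84, and the medians by library were 0.92 and 0.70. Plat, which encodes tissue plasminogen activator, stood at 689 and 271 against 92.0 and 66.2 CPM, a log2 difference of 2.48 (SE 0.18, adjusted p = 4.0e-16). Gata5, a transcription factor gene of glomerular endothelium, stood at 51.8 and 19.9 against 12.9 and 10.4 CPM, a log2 difference of 1.61 (SE 0.37, adjusted p = 0.0012). Nostrin stood at 162 and 77.0 against 48.2 and 34.9 CPM, a log2 difference of 1.5 (SE 0.19, adjusted p = 1.7e-08). In all 3 genes library 1 is the higher of the Plvap-low sums, as it is for Ehd3, and both lie above the Plvap-positive sums. Dkk2, an inhibitor of Wnt signalling, stood at 533 and 340.2 against 152 and 77.5 CPM, a log2 difference of 1.91 (SE 0.16, adjusted p = 7.1e-14). Of the 11 calls, Plat, Gata5, Tbx3, Mapt, Hecw2 and Nostrin were also called higher with Ehd3 within the members, described below. Sost, Pi16, Smad6, Dkk2 and Pdgfb were not. Dkk2 and Pdgfb were called higher in the members with neither Gja5 nor Ehd3. The single call downward was Fabp5, a fatty acid binding protein gene, at 357 and 228 against 938 and 779 CPM, a log2 difference of -1.60 (SE 0.15, adjusted p = 3.7e-12).

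Capillary and venous genes other than Plvap were mostly lower. Of 17 tested members, 8 were called lower and 3 higher, with a median of -0.72. Nr2f2, the transcription factor gene of venous identity, stood at 65.0 and 74.5 against 212 and 243 CPM, a log2 difference of -1.75 (SE 0.19, adjusted p = 2.5e-10). Aplnr, the apelin receptor gene of veins and sprouting capillaries, stood at 49.9 and 19.9 against 205 and 259 CPM, a log2 difference of -2.55 (SE 0.23, adjusted p = 7.5e-13). Rgcc, a cell cycle regulator found in capillary endothelium, stood at 40.5 and 34.8 against 281 and 379.9 CPM, a log2 difference of -3.07 (SE 0.21, adjusted p = 4.8e-17), the most extreme of the list. The order is the same at equal depth: after thinning Rgcc was detected in 12.1% and 8.3% of Plvap-low against 46.7% and 52.9% of Plvap-positive cells. The members of this list that rose were Igfbp7, Slco2a1 and Vwf, the last at 46.1 and 19.9 against 10.2 and 9.08 CPM, a log2 difference of 1.77 (SE 0.39, adjusted p = 0.00083).

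Cell cycle genes were lower. Of 30 tested members, 27 were called lower and none higher, with a median of -2.19 and medians by library of -1.98 and -3.71. Mki67, a marker of cycling cells, stood at 37.7 and 2.48 against 268 and 177 CPM, a log2 difference of -3.29 (SE 0.26, adjusted p = 1.0e-14). Top2a, which untangles DNA before mitosis, stood at 74.4 and 14.9 against 369.6 and 248 CPM, a log2 difference of -2.74 (SE 0.22, adjusted p = 2.1e-14). After thinning, Mki67 was detected in 4.0% and 0.0% of Plvap-low cells, 24.2% and 18.7% of Plvap-positive and 20.2% and 13.0% of epithelial cells. With 0 of 36 cells, library 2 allows up to 8.33% of cells with a Mki67 UMI at 3000 UMIs, which does not limit the share of cells that express the gene. Unthinned the shares were 12.1% and 2.8% of Plvap-low against 38.9% and 30.5% of Plvap-positive cells. The members are the shallower cells. Among cells of at least 10000 UMIs, 22 of the 30 genes were called lower, with a median of -2.0. After thinning 12 of 26 tested genes were called lower, with a median of -1.93, and with DESeq2 13 of 30, with a median of -2.28. The part of depth in the remaining difference was not tested.

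The largest differences lay mostly in genes outside the arterial and glomerular lists. Hpgd, which encodes the enzyme that degrades prostaglandins, stood at 335 and 320.3 against 14.5 and 24.6 CPM, a log2 difference of 4.08 (SE 0.19, adjusted p = 6.7e-23). Slc14a1, the urea transporter UT-B, stood at 148 and 42.2 against 0.208 and 2.89 CPM, a log2 difference of 5.92 (SE 0.47, adjusted p = 1.2e-14), and 81 of its 174 member UMIs lay in 1 cell. Aqp1, a water channel gene that with Slc14a1 is known from the endothelium of descending vasa recta as well as from tubules, stood at 718 and 1063 against 87.8 and 117 CPM, a log2 difference of 3.06 (SE 0.15, adjusted p = 1.5e-22). After thinning, Aqp1 was detected in 47.5% and 52.8% of Plvap-low cells, 9.0% and 10.6% of Plvap-positive and 5.7% and 5.3% of epithelial cells. Slc14a1 was detected in 8.1% and 8.3%, 0.2% and 0.2%, and 0.1% and 0.2% of the same groups. Scin, an actin-severing protein gene, stood at 188 and 119 against 8.23 and 11.7 CPM, a log2 difference of 3.96 (SE 0.23, adjusted p = 3.7e-20). Adgrl3, an adhesion receptor gene, stood at 369 and 276 against 20 and 24.6 CPM, a log2 difference of 3.83 (SE 0.19, adjusted p = 1.5e-22). Lef1, a transcription factor gene of Wnt signalling, stood at 160.0 and 191 against 17.1 and 14.3 CPM, a log2 difference of 3.41 (SE 0.19, adjusted p = 2.0e-20). For each of these, the lower Plvap-low library exceeds the higher Plvap-positive library several-fold. Epha6 (4.30), Fam13a (3.78), Pcp4l1 (3.46), Lpcat2 (3.25) and Dach2 (3.23) complete the named higher genes with Foxp2 (3.18, 70 of 271 UMIs in 1 cell). 1 further gene model without a standard name also met the rule.

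The lower genes with the largest differences held mitotic genes beside others. Nlgn1, an adhesion protein gene better known from synapses, stood at 21.7 and 7.45 against 321 and 427 CPM, a log2 difference of -4.40 (SE 0.25, adjusted p = 3.7e-20). Hs6st3, a heparan sulphate sulphotransferase gene, stood at 4.71 and 59.6 against 319 and 247 CPM, with library 2 far above library 1 among the members. Cdca2, a mitotic gene, had 2 UMIs in the members and 611 in Plvap-positive cells, a ratio of 23.2 (95% counting interval 6.40 to 192). Il33, an alarmin gene of vascular endothelium, had 3 and 628 UMIs, a ratio of 15.9 (95% counting interval 5.41 to 77.3). Slc24a3, a sodium and calcium exchanger gene, was at a log2 difference of -4.23 (SE 0.36, adjusted p = 1.7e-13).

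Other lists moved in part. Pan-endothelial genes were near level, with 5 of 22 higher, 1 lower (Tek, the angiopoietin receptor) and a median of 0.11; Emcn and Kdr did not pass, at 0.13 (adjusted p = 0.71) and 0.08 (adjusted p = 0.85). Cldn5, a tight junction gene, stood at 1001 and 1135 against 554 and 633 CPM, a log2 difference of 0.80 (SE 0.13, adjusted p = 8.6e-06). Of 10 genes of caveolae and fenestrae, 4 were higher and none lower, among them Cav1, the caveolin gene, at 459 and 427 against 153 and 113 CPM, a log2 difference of 1.70 (SE 0.16, adjusted p = 1.9e-12). Transporter and channel genes had 7 of 18 higher and 3 lower, the latter including Piezo2 (-1.71), a mechanically gated channel, and Fabp4, a fatty acid carrier, at 2820.2 and 2475 against 5215 and 6037 CPM. VEGF and angiopoietin genes split, with 6 of 18 higher and 4 lower: the co-receptor gene Nrp1 was at 0.79 and the venous and lymphatic receptor gene Flt4 at -1.12. Of 19 BMP and TGF-beta genes, 6 were higher and none lower, among them the receptor gene Acvrl1 (0.91) and the inhibitor Smad6 (1.16). Axon guidance genes had 6 of 25 higher and 7 lower, with Unc5c at -2.51. Basement membrane genes had 3 of 17 higher, including Col18a1 (1.42), and 5 lower, including Col15a1 (-1.29) and Lama4 (-1.07). Flow response genes had 3 of 13 higher, with Klf4 at 0.79, while Klf2 did not pass at 0.39 (adjusted p = 0.076).

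**Figure D3:**
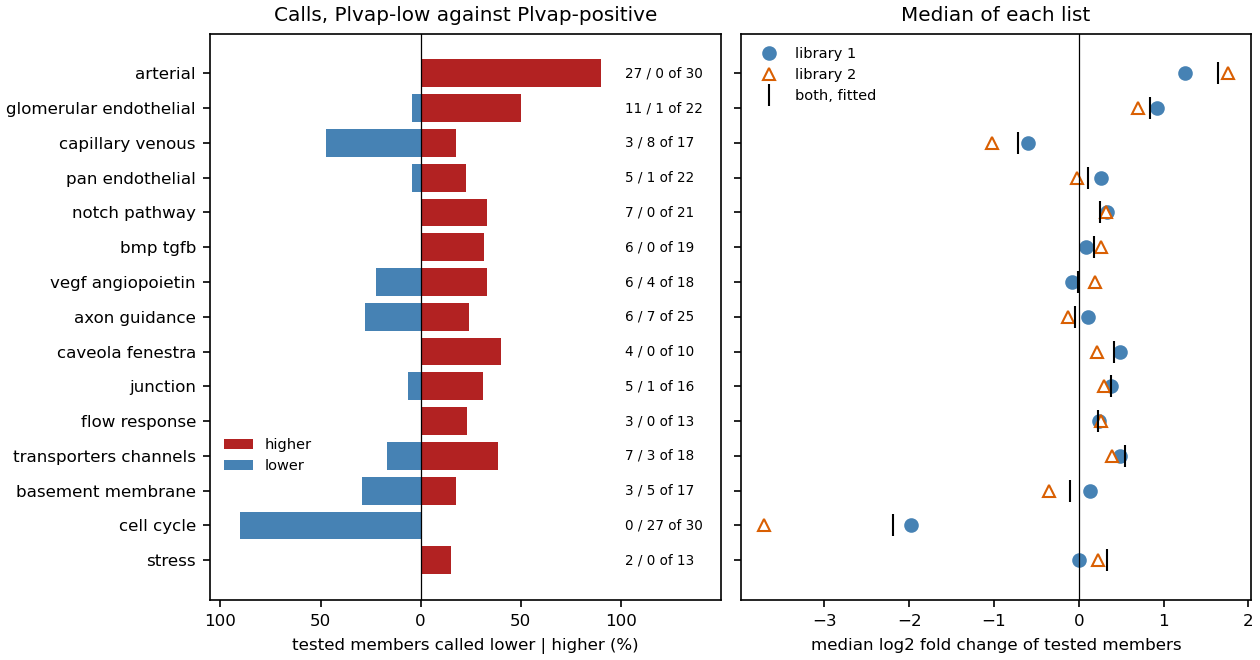
Left: percent of each list's tested genes called higher (right, red) or lower (left, blue) in Plvap-low against Plvap-positive cells, with the numbers beside each bar. Right: median log2 fold change of the tested genes of each list, fitted over both libraries (black) and in each library. Arterial genes stand at 27 of 30 higher and cell cycle genes at 27 of 30 lower.

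Markers of other cell types were counted in the same comparison. Erythroid genes were called higher in 4 of 5 tested, with Hbb-bs at 3111 and 7190.4 against 1056 and 2643 CPM, but 3 member cells held 97.6% of the members' haemoglobin UMIs. Without such cells, and without cells that hold Pdgfrb, none of the erythroid genes was called, and 26 arterial genes were higher and 25 cell cycle genes lower of 30 each. Mural and mesangial genes had 3 of 11 lower and none higher. Of the podocyte, stromal, tubular and immune lists, 1 of 29 tested genes was called, the podocyte gene Cdkn1c.

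The 63 members with neither Gja5 nor Ehd3 were compared with Plvap-positive cells on their own. Of 12617 tested genes, 324 were higher and 458 lower, which is 6.2% called, 2.57% higher and 3.63% lower. With DESeq2 210 genes were called, 62.4% of them higher in place of 41.4%. Arterial genes were raised here too: 16 of 30 were called higher and none lower, with a median of 1.21 against -0.08 for all tested genes. Cxcl12 was at 2.37, Gja4 at 2.0 and Vegfc at 2.0, while Eln did not pass at -0.29 (adjusted p = 0.71). Glomerular genes showed no such shift, with 2 of 22 higher (Dkk2 and Pdgfb), 2 lower (Igfbp5 and Fabp5) and a median of -0.17. Cell cycle genes were lower in 24 of 30, with a median of -2.62. Of 7 tested podocyte genes, Wt1, Ptpro and Cdkn1c were called higher, with medians of the list by library of -0.14 and 2.67. The list summed to 685 and 1549.6 CPM against 650.4 and 519 CPM in Plvap-positive cells and 829 and 668 CPM in the free RNA. At 3000 UMIs per cell, 1 of the 21 cells of library 2 held 67 of their 104 podocyte list UMIs. Without that cell the mean was 1.85 UMIs per cell, against 1.90 in library 1 and 1.73 and 1.46 in Plvap-positive cells. The part of free or podocyte RNA in these calls was not tested. Ptpro is not shared by the libraries, with 1 and 20 UMIs in these cells against 282 and 9 in Plvap-positive cells, and without library 2 its direction turns. The lymphatic list summed to 240 and 44.0 CPM in this set against 118 and 119 CPM in Plvap-positive cells, and at 3000 UMIs per cell 1 cell held 17 of its 24 UMIs in library 1. Notch genes had Jag1, Jag2 and Hey1 higher and Dlk1 lower of 20 tested.

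The named higher genes of these 63 cells were led by Slc14a1, at 120.2 and 33.0 CPM against 0.208 and 2.89 CPM in Plvap-positive cells, a log2 difference of 5.81 (SE 0.73, adjusted p = 3.5e-13). Scin stood at 240.5 and 126 CPM, a log2 difference of 4.20 (SE 0.27, adjusted p = 5.9e-49), and Hpgd at 397 and 231 CPM, a log2 difference of 4.02 (SE 0.23, adjusted p = 9.9e-67). Over all members edgeR gave larger adjusted p-values for Scin and Hpgd, 3.7e-20 and 6.7e-23, at smaller standard errors, 0.23 and 0.19. With sums of 2 libraries, p-values of this size rest on the spread shared across genes. They do not make the smaller set more certain than the whole. Fam13a, Adgrl3, Lpcat2, Lef1, Foxp2, Dach2 and Vldlr followed, at 4.05, 4.01, 3.78, 3.69, 3.64, 3.49 and 3.47, with 2 unnamed gene models. Aqp1 was at 2.85. Of the named lower genes, the mitotic genes Cenpp, Kif4, Aspm, Cdca3 and Cdca2 had 0 UMIs in these cells, as did Adamts16. Against the limit of 3 counts over the group that a count of 0 allows, Cenpp was at least 9.75-fold and Kif4 at least 8.84-fold lower. Adamts16, a secreted protease gene, was at least 9.37-fold lower.

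Detection of these genes overlapped in part. Slc14a1 was detected in 17 members (12 and 5), and each of them also held Hpgd, Aqp1, Lef1 and Jag1. Scin was found in 16 of the 17, Vegfc in 16, Adgrl3 in 15 and Foxp2 in 15. Of the 118 members without Slc14a1, Aqp1 was found in 57.6%, Jag1 in 39.0%, Vegfc in 35.6%, Hpgd in 32.2%, Lef1 in 16.1% and Scin in 12.7%. The 17 cells are thus a part of the 55 members with Hpgd and the 85 with Aqp1, and hold 16 of the 31 with Scin. Of the 17, Gja5 was found in 6 and Ehd3 in 2, and Gata5 of the glomerular list in none. Adamts16 and Cd300lg, which are not in that list but follow Ehd3 among the members, were also found in none. With Ehd3 in only 2 of the 17, the absence of these genes is no separate result. These cells were deeper than the others, with a median of 12506 UMIs against 7073.5, which raises detection of every gene in them. At least 3 of the 6 genes Slc14a1, Scin, Lef1, Adgrl3, Foxp2 and Dach2 were found in 17.2% and 22.2% of the members (17 and 8 cells) and in 4.19% and 3.53% of Plvap-positive cells. Of these 25 members, 17 had neither Gja5 nor Ehd3. None of the 6 genes was found in 83 members. The 6 genes were chosen after their values were seen, and no cell type name was fixed for such cells.

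**Figure D4:**
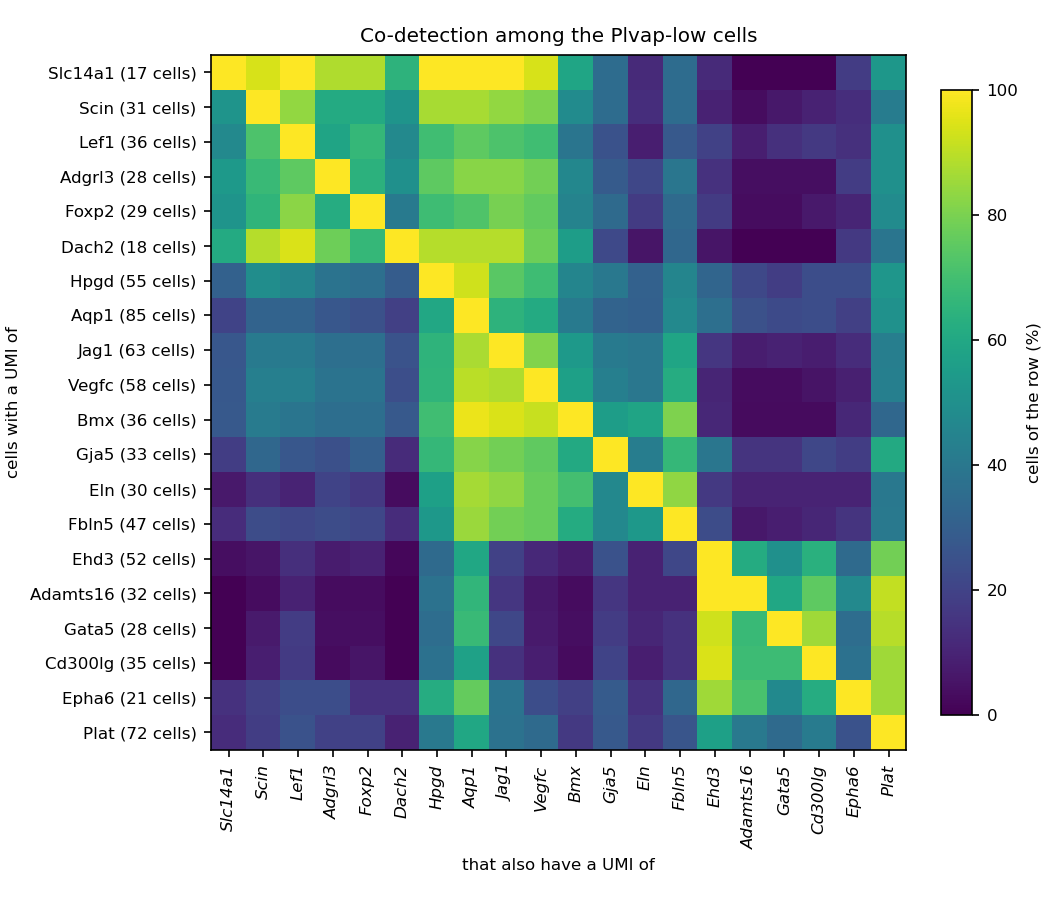
For each gene on the y axis (with its number of Plvap-low cells), the colour gives the percent of its cells that also hold a UMI of the gene on the x axis. Slc14a1, Scin, Lef1, Adgrl3 and Hpgd overlap with each other and with Jag1 and Vegfc, and Adamts16, Gata5 and Cd300lg overlap with Ehd3 and not with Slc14a1.

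Members with Ehd3 were compared with members without it, 42 and 10 cells against 57 and 26. This comparison was added after the groups had been counted, and shares its cells with the others within the members. Of 11877 tested genes, 171 were higher and 87 lower, which is 2.17% called, 1.44% higher and 0.733% lower. Adamts16 stood at 409.7 and 166 CPM in Ehd3-positive cells and at 0 in the rest, at least 97.1-fold higher, and all 32 members with Adamts16 carried Ehd3. Dlk1, an inhibitory relative of the Notch ligands, stood at 923 and 363 against 3.33 and 0 CPM, a ratio of 327 (95% counting interval 90.1 to 2709). Cd300lg, an endothelial surface receptor gene, stood at 145 and 117 against 3.33 and 0 CPM. These 3 genes are nearly confined to the Ehd3 cells among the members of both libraries. Dlk1 was found in only 23.8% and 20% of the Ehd3 cells, and its counting interval does not cover variation between cells. They are not particular to the members: Adamts16 was found in 27.8% and 23.2% of Plvap-positive cells, and Dlk1 had 2230 UMIs there. Scn7a, a sodium channel gene, was at 0 in the cells without Ehd3 and at least 35.5-fold higher. Epha6 stood at 349 and 49.3 against 11.6 and 0 CPM, and Gata5 at 113 and 49.3 against 4.99 and 0 CPM, a log2 difference of 4.67 (SE 0.71, adjusted p = 0.0061); 26 of the 28 members with Gata5 carried Ehd3.

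Of the glomerular list, which leaves out Ehd3 itself, 7 of 22 tested genes were higher in Ehd3-positive members and none lower, with a median of 1.24 against -0.03 for all tested genes. Plat stood at 1405 and 591 against 139.8 and 54.1 CPM, a log2 difference of 3.29 (SE 0.29, adjusted p = 0.00030). Tbx3, Igfbp5, Mapt, Hecw2 and Nostrin were at 2.43, 3.59, 3.41, 2.53 and 3.04. The VEGF receptor gene Kdr, at 1.54, was the 1 gene called of 17 tested in the VEGF and angiopoietin list. Of 17 tested basement membrane genes, Col4a1 (at 1.07), Col4a2 and Nid2 (at 1.68) were called higher and none lower, with a list median of 0.04 against -0.03 for all tested genes. Emcn, an endothelial sialomucin gene, was at 1.57. Lower in the Ehd3-positive cells were Vwf, at 0 against 81.5 and 33.3 CPM (at least 14.1-fold), and Eln, at 32.5 and 0 against 754 and 657 CPM. The single-cell weight of Eln given above falls on the 754 CPM of library 1. Robo2, a guidance receptor gene, was at -4.40, Cldn5 at -1.33 and Cav1 at -1.13. At 3000 UMIs per cell, the mean sum of the glomerular list in Plvap-positive cells was 7.47 and 6.30 UMIs with Ehd3 and 6.45 and 5.75 UMIs without it, with medians of 6 and 6 and of 6 and 5. Among the members the mean sum was 20.4 and 15.7 UMIs with Ehd3 and 5.81 and 6.27 without it, with medians of 19.5 and 14 and of 6 and 5. The Ehd3 cells lie higher in both groups and both libraries by their means. Whether the difference between cells with and without Ehd3 is unlike in the 2 groups was not tested.

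Members with Gja5 were compared with members without it, 23 and 10 cells against 76 and 26, again an added comparison. Their median depths were 9641 and 12558 UMIs against 6533 and 8519. Of 9854 tested genes, 28 were higher and 16 lower, which is 0.447% called, 0.284% higher and 0.162% lower. Of the named higher genes, Ptchd1, a patched-domain protein gene, stood at 115 and 49.9 against 4.70 and 0 CPM, a ratio of 27.5 (95% counting interval 8.95 to 137). Pcdh9, a protocadherin gene, had 17 and 10 UMIs against 0 and 2 UMIs. Eln stood at 1038 and 788 against 42.3 and 71.9 CPM, a log2 difference of 4.13 (SE 0.39, adjusted p = 0.00014), with the single-cell weight given above. Fbn1, which encodes fibrillin-1, stood at 280.2 and 333 against 47.0 and 44.9 CPM, a log2 difference of 2.69 (SE 0.32, adjusted p = 0.00094). Fbln5 stood at 396 and 616 against 84.7 and 135 CPM, a log2 difference of 2.20 (SE 0.32, adjusted p = 0.0082). For each of the 3 genes both libraries with Gja5 lie above both without. Mgp, an inhibitor of calcification, was at 2.42, the matrix protease gene Htra1 at 2.83, and Vwf stood at 111 and 33.3 against 3.14 and 8.99 CPM.

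Of the arterial list, without Gja5, 9 of 30 tested genes were higher and none lower, with a median of 1.15, and none of the tested glomerular genes was called. Lower in Gja5-positive members were Rgcc, at 0 against 67.4 and 62.9 CPM (at least 13.4-fold), Robo2, at 11.8 and 0 against 232 and 265 CPM, and the venous factor gene Nr2f2, at -2.22. The leucocyte genes Ptprc and Lyz2 were also called higher, and each was found in 2 members, both with Gja5. The call count fell from 44 to 3 without the library as a block. With the profile of empty barcodes subtracted edgeR called 0 genes, with 678 at an unadjusted p under 0.05. That subtraction was scaled on the haemoglobin of the endothelial cells and set at 34.4% and 32.0% of each group's UMIs. The tubule markers given above, set against free RNA, would give a smaller share. Single calls of this comparison rest on these choices. Arterial genes were also high in Gja5 cells that carry Plvap: at 3000 UMIs per cell the arterial list summed to medians of 29 and 36 UMIs in Plvap-low cells with Gja5 and 30.5 and 29.5 in the 28 and 34 Plvap-positive cells with Gja5, against 4 and 5 over all Plvap-positive cells.

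Ehd3 cells and Gja5 cells were also set against each other directly, leaving out the 13 cells with both. This rests on 34 and 5 against 15 and 5 cells, fewer in library 2 than the 10 first asked for, and the lower minimum of 5 was taken after the counts were seen. Of 5848 tested genes, 214 were higher in the Ehd3 cells and 189 in the Gja5 cells, which is 6.89% called, 3.66% and 3.23%. Vegfc stood at 1052 and 959 CPM in the Gja5 cells and at 0 in the Ehd3 cells, at least 110.5-fold apart. Bmx was at 0 in the Ehd3 cells as well, at least 25.5-fold apart. Of all 52 members with Ehd3, 6 held Vegfc and 4 held Bmx, each of them among the 13 cells left out. In the other direction Adamts16 and Edil3, a matrix protein gene of endothelium, were at 0 in the Gja5 cells and at least 48.6-fold and 30.4-fold higher in the Ehd3 cells. Of all 33 members with Gja5, 5 held Adamts16, again among the 13 cells left out. Of the arterial list, 18 of 29 tested genes were higher in the Gja5 cells and none in the Ehd3 cells, and of the glomerular list 7 of 15 were higher in the Ehd3 cells and none in the Gja5 cells.

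Cells varied widely within the members. At 3000 UMIs per cell, the sum of the arterial list ran up to 221 and 104 UMIs, with medians of 13 and 23 in Plvap-low and 4 and 5 in Plvap-positive cells. Members with Ehd3 had medians of 8.5 and 15.5 and members with neither gene 15 and 28. The glomerular list had medians of 8 and 5 in Plvap-low and 6 and 6 in Plvap-positive cells, below the 19.5 and 14 of the Ehd3-positive members. The 13 cells with both genes had arterial medians of 19.5 and 28 and glomerular medians of 20 and 5, so the libraries differ for them.

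**Figure D5:**
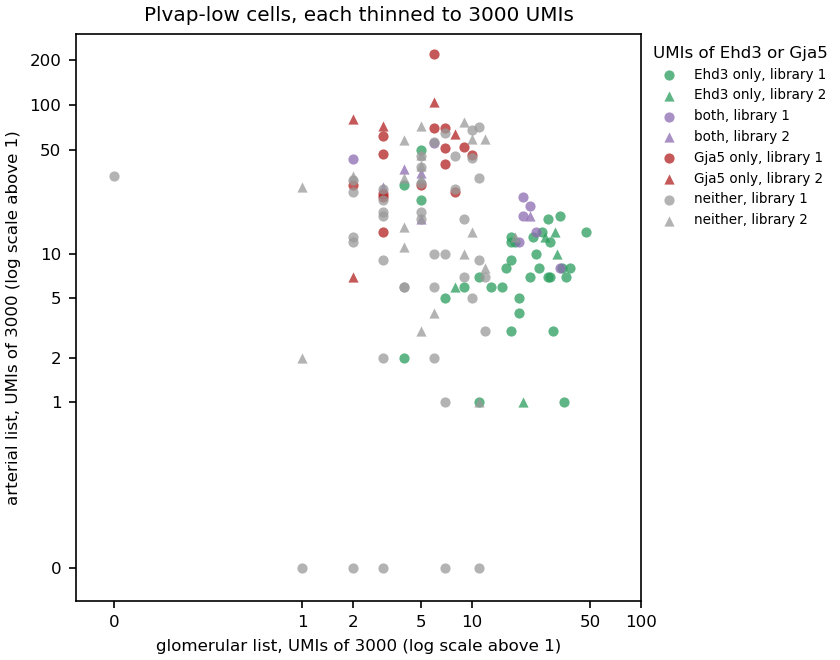
Each point is 1 Plvap-low cell thinned to 3000 UMIs (circles library 1, triangles library 2), placed by the UMIs of the glomerular list (x axis) and of the arterial list (y axis), both on a log scale above 1, and coloured by Ehd3 and Gja5. Most cells with Ehd3 alone have high glomerular and low arterial sums, most cells with Gja5 alone the reverse, and cells with neither spread over the arterial axis at low glomerular sums.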

How the data were processed

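The authors deposited raw counts of UMIs per gene and barcode for both libraries, all barcodes included. Per the submitters' processing notes they were made with Cell Ranger 6.0.1 on mm10, while the file headers name Cell Ranger 4. The 2 libraries hold 200331687 and 173166168 UMIs over 32285 genes, and the members 1062353 and 402762 UMIs. The members, gene lists and comparisons were chosen with earlier results of these data known.

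UMIs were summed per library and group of cells, since cells are not replicates, and tested with edgeR 4.0.16 (limma 3.58.1, R 4.3.3): TMM scaling, filterByExpr, the library as a block and the quasi-likelihood F test, two-sided, with Benjamini-Hochberg adjustment over all genes tested at 0.05. The library is a block because both groups are cut from the same cell suspension. The rule's own genes, mitochondrial genes, Xist, Tsix and Y-linked genes were not tested. The comparisons of Ehd3 against Gja5 cells and of the cells with neither also left out Ehd3 and Gja5. The comparison by Ehd3 left out Ehd3, and the comparison by Gja5 left out Gja5. The direct comparison of Ehd3 and Gja5 cells fitted all sets of members and the Plvap-positive cells together. The comparisons by Ehd3 and by Gja5 fitted Plvap-low and Plvap-positive cells, each divided by that gene. The cells with neither were fitted with the Plvap-positive cells alone. The direct comparison of Ehd3 and Gja5 cells had been set to need 10 cells in each library, which library 2 could not give, so it was run with 5. Named genes are the 12 with the largest fitted difference in each direction among calls that have the same direction in both libraries, at least 20 CPM in the higher group and a UMI in at least 10% of its cells; list members are named beside them. CPM are summed counts per 1000000 UMIs of the group with no correction for length, so levels are not compared between genes. Intervals are exact binomial (Clopper-Pearson) at 95% and cover counting error only. On simulated counts the fit of Plvap-low against Plvap-positive cells over 12679 genes recovered 83% of 100 genes changed by 2 on the log2 scale, with 8 false calls. Recovery was 69% for the cells with neither, 71% by Gja5 and 72% by Ehd3. The direct comparison was not simulated. Simulated counts had the same spread for every gene, no library effect beyond depth and no weight of single cells, and only well-counted genes were changed. They do not give the rate of false calls in these data. Alternatives were another test (DESeq2 1.42.0), no filter, no block, other gates, Scrublet removal (scanpy 1.11.5, 245 and 142 cells), subtraction of the profile of barcodes with 1 to 100 UMIs, thinning and leaving out a library; the 6 Slc14a1 and related genes, the comparisons by Ehd3 and by Gja5, and thinned sums were added after the data were seen. The gate against other cell types in these alternatives, on Pdgfrb and on haemoglobin above 1% of UMIs, was likewise chosen after the data were seen, in place of a planned gate that is not reported here. Of the 335 list genes, 2 were not matched by symbol. Python 3.11.15, numpy 2.4.6, scipy 1.17.1, pandas 2.3.3 and matplotlib 3.10.9 were used.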

Additional observations from a re-analysis of the deposited data

How the results depend on the processing

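The number of genes called moved with the processing far more than direction did. For Plvap-low against Plvap-positive cells the count was 1324, and it was 471 with DESeq2, 560 without the replicate block, 832 at 10000 or more UMIs per cell, 618 with the empty-barcode profile subtracted and 535 after thinning. For members with neither gene the count of 782 became 210 with DESeq2, 476 without the replicate block and 157 after thinning, and the share of higher calls, 41.4%, became 62.4% with DESeq2. For Ehd3-positive members the count of 258 became 763 without a filter on low counts, 149 without the block, 147 at 10000 UMIs and 76 with the empty profile subtracted. For Gja5-positive members the count of 44 became 185 without a filter, 3 without the block, 11 at 10000 UMIs, 156 with the Plvap gate at 1 UMI and 24 after thinning. With the empty profile subtracted it was 0, with 678 genes at an unadjusted p under 0.05 in edgeR. For Ehd3 against Gja5 cells the count of 403 became 613 with the Plvap gate at 1 UMI, 236 with subtraction and 167 after thinning, and the setting of 10000 UMIs could not be run. Leaving out a library leaves no residual degrees of freedom, so it gives values without a test. Subtraction of the empty profile was scaled on haemoglobin, at 34.4% and 32.0% of each group's UMIs. The causes of these changes in count were not tested.

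The members' share of all cells, 1.32% ± 0.66 (SD, n = 2), was 0.643% at 10000 UMIs, 2.20% with up to 1 Plvap UMI allowed, and 0.856% to 1.79% without each library in turn. Gja5 was detected in 14.5% of members after thinning to 3000 UMIs, with 13.9% to 15.2% by library. It was at 25.5% without thinning and 10.4% at 1500 UMIs. The SD between libraries was 0.89 at 3000 UMIs, 3.21 without thinning and 8.93 at 1500 UMIs, so their closeness depends on the depth chosen. Ehd3 was at 29.8%, with 22.2% to 37.4% by library, and Mki67 at 2.02%, with 0% to 4.04% by library and 7.45% without thinning.

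Of 1320 tested values of the 134 named differences under these settings, 1184 kept direction and side of the threshold, 129 kept direction but no longer passed and 2 newly passed. Without each library in turn, where no test is possible, 262 of 268 values kept their direction. Genes named by the rule had been chosen for the same direction in both libraries, so for them this agreement was fixed in advance. The direction turned for a few that had not passed: Emcn (-0.041 with the Plvap gate at 1 UMI, -0.16 to 0.40 without each library), Kdr (-0.044, and -0.11 to 0.27), Rbpj (-0.13 to 0.45 without each library), Hes1 (-0.40 to 0.10 without each library), Igfbp3 (-0.11 after thinning) and, in members with neither gene, Eln (0.39 after thinning, -0.72 to 0.073 without each library). Of those that had passed, Hbb-bs turned to -0.23 without haemoglobin-heavy and Pdgfrb cells and Ptpro, in members with neither gene, ranged from -3.21 to 6.22 without each library.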
